A study of Tamarix ramosissima and Tamarix chinensis with 11 samples.

Results

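Of the 117867 genes assembled from *Tamarix* leaf RNA, 219 were present in well-watered seedlings of both *T. chinensis* and *T. ramosissima*, at a low level in at least 1 species. These genes fell steeply in both species under water deficit. They were chosen on CPM, the count of a gene scaled by the total of its library. A gene had to average at least 3 CPM in the controls of both species and less than 20 CPM in at least 1 of them, a control range that 9739 genes met. Its response was measured as L, the log2 of the mean water deficit CPM plus 1 over the mean control CPM plus 1. L had to be −1.5 or lower in both species, with every water deficit library of a species below every control library of that species. Because these values chose the genes, the falls under water deficit are described below without a test.

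The groups were *T. chinensis* under water deficit (TC_WD, 3 libraries), its well-watered control (TC_C, 2 libraries), *T. ramosissima* under water deficit (TR_WD, 3 libraries) and its well-watered control (TR_C, 3 libraries). Each library came from the leaves of 1 seedling, grown from seed of New Mexico (*T. chinensis*) or Montana (*T. ramosissima*) stands and 14 weeks old when moved to growth chambers at 25 °C. Water was withheld until the leaves wilted, after 10 days for *T. chinensis* and after 17 days for *T. ramosissima*. Species, seed source and day of harvest therefore cannot be told apart. The libraries held between 10245008 and 15655257 counted fragments, so that 1 CPM stood for 10.2 to 15.7 fragments. Genes carry assembly identifiers and no names in these tables. Leaf markers were therefore not checked, no function is given for any gene, and only 4 genes are named, by the rule given with the processing.

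A leaf that loses turgor closes its stomata, and the hormone abscisic acid sets off a program that raises protective transcripts such as those of dehydrins. Transcripts for photosynthesis, growth and biosynthesis are commonly lowered at the same time. Transcripts at a low level in a whole leaf include those of many regulators and of genes that are active in few of its cells. In whole leaves, fewer cells of a type and less RNA per cell cannot be told apart.

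The 219 genes together took 239, 263 and 556 CPM in the 3 TC_WD libraries, against 2624 and 2064 CPM in the TC_C libraries. In *T. ramosissima* they took 558, 694 and 576 CPM in the TR_WD libraries, against 3309, 2893 and 3705 CPM in the TR_C libraries. The means were 353 ± 177 CPM in TC_WD (SD, n = 3), 2344 ± 396 CPM in TC_C (SD, n = 2), 609 ± 74.1 CPM in TR_WD (SD, n = 3) and 3303 ± 406 CPM in TR_C (SD, n = 3). The spread among the TC_WD libraries came from 1 library, TC_WD replicate 3, which held more of these transcripts than the other two. The median gene of the 219 averaged 1.29 CPM in TC_WD and 10.1 CPM in TC_C, and 2.21 CPM in TR_WD and 13.5 CPM in TR_C. Single genes averaged between 3.04 and 30.3 CPM in TC_C and between 3.44 and 83.3 CPM in TR_C. Below 20 CPM in both controls were 168 of the genes, while 45 reached 20 CPM in TR_C and 6 in TC_C.

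**Figure D1:**
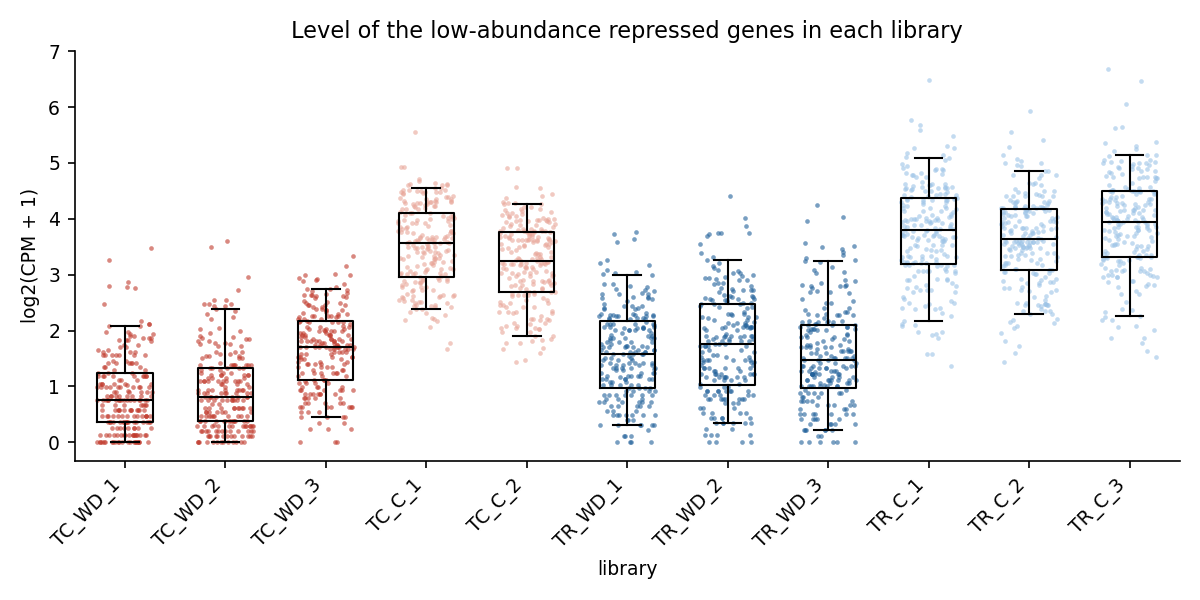
Level of the 219 genes in each of the 11 libraries as log2(CPM + 1), with 1 point per gene; boxes show the median and quartiles, and whiskers the 5th and 95th percentiles. The medians of the 6 water deficit libraries lie below those of the 5 controls, and TC_WD replicate 3, with a median of 2.26 CPM, lies above TC_WD replicates 1 and 2, with medians of 0.683 and 0.764 CPM.

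Every member was detected in every control library, where the lowest value was 1.57 CPM and the smallest count was 20 fragments. Under water deficit, 22, 13 and 3 members had no fragment in TC_WD replicates 1, 2 and 3, and 4, 4 and 6 had none in TR_WD replicates 1, 2 and 3. A count of 0 allows up to 3 fragments, which is 0.229 to 0.293 CPM in the water deficit libraries and covers counting error only. In all, 36 members had no fragment in at least 1 water deficit library. No member was at 0 in all TC_WD libraries, 1 was at 0 in all TR_WD libraries, and 15 stayed below 1 CPM in all 6 water deficit libraries.

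The median L of the members was −2.09 in *T. chinensis*, with a range from −3.62 to −1.503, and −2.01 in *T. ramosissima*, with a range from −3.87 to −1.501. Over all genes in the control range the median L was −0.06 in *T. chinensis* and 0.01 in *T. ramosissima*. Without the added 1 CPM, the median member kept 14.2% of its control level in *T. chinensis* (quartiles 9.41% and 18.4%) and 16.8% in *T. ramosissima* (quartiles 11.5% and 23.6%). An L of −2 or lower was reached by 130 members in *T. chinensis* and 112 in *T. ramosissima*, and an L of −3 or lower by 10 and 11.

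**Figure D2:**
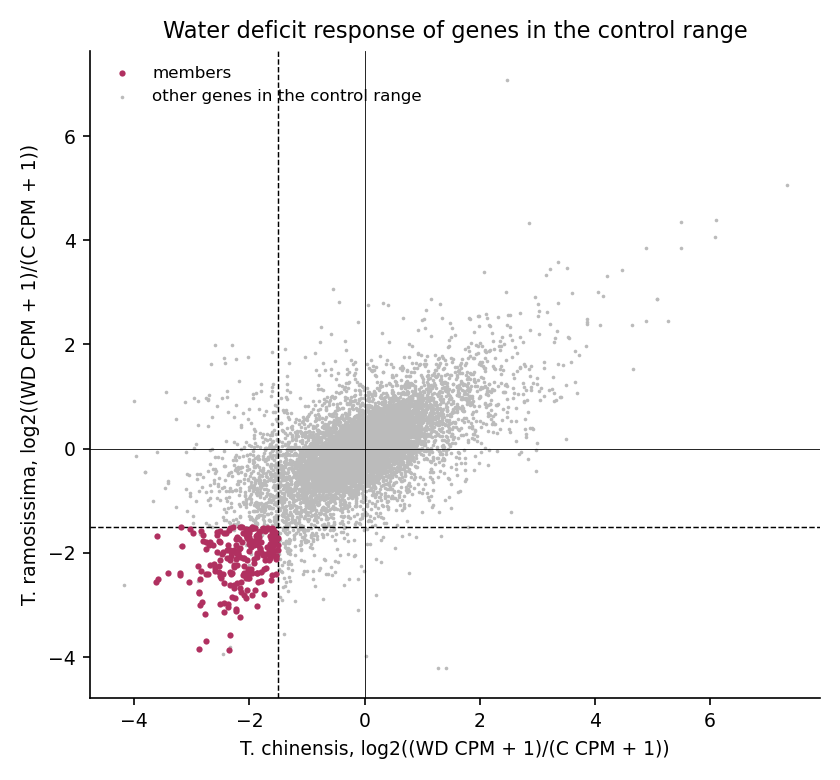
L, the log2 of water deficit over control after adding 1 CPM, in *T. chinensis* (horizontal axis) and *T. ramosissima* (vertical axis) for the 9739 genes in the control range, with the members in colour and the limits of −1.5 as dashed lines. The members fill the lower left corner, and the 18 grey points inside it are genes whose libraries were not ordered in both species.

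The added 1 CPM makes the rule stricter for the genes with the lowest control level. A gene at 3 CPM had to fall to 0.414 CPM, which is 13.8% of its control level, whereas a gene at 20 CPM had to fall to 6.42 CPM, which is 32.1%. Of the 1656 genes in the control range that averaged 3 to 5 CPM over the controls of both species, 19 (1.15%) were members, compared with 59 of 3426 (1.72%) at 5 to 10 CPM, 115 of 4109 (2.80%) at 10 to 20 CPM and 26 of 548 (4.74%) above that. In the lowest band the median member kept 10.3% of its control level in *T. chinensis* and 12.3% in *T. ramosissima*, and in the highest band 17.4% and 20.1%. Just inside the limit, the larger L of a member was −1.501, and just outside it genes with ordered libraries had −1.498 and −1.497. The members nearest to 3 CPM had a lower control mean of 3.04 and 3.23 CPM, and genes with the same fall just outside had 2.98 and 2.97 CPM. Those nearest to 20 CPM had 19.8 CPM inside, and 20.3 and 20.4 CPM outside.

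TRINITY_DN24410_c2_g3 was the member whose smaller fall of the 2 species was the deepest. It was at 0, 0.611 and 0 CPM in the TC_WD libraries, against 11.02 and 4.60 CPM in the TC_C libraries. In *T. ramosissima* it was at 0.401, 0 and 0 CPM in the TR_WD libraries, against 8.35, 30.1 and 7.50 CPM in the TR_C libraries. Its remaining signal under water deficit rested on 8 fragments in TC_WD replicate 2 and 5 fragments in TR_WD replicate 1, and L was −2.87 in *T. chinensis* and −3.85 in *T. ramosissima*. TR_C replicate 2 was far above the other two controls, so that the control mean of 15.3 CPM had an SD of 12.8 (n = 3). The difference between the controls of the species did not pass the test (log2 TC_C over TR_C −0.98, standard error 0.97, adjusted p = 1 by edgeR's quasi-likelihood test). This log2 value was −1.70 without TC_C replicate 1, −0.50 without TC_C replicate 2 and −0.17 without TR_C replicate 2, and over 18 alternatives the adjusted p lay between 0.833 and 1.

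TRINITY_DN37893_c2_g1 was the member with the smallest unadjusted p between the controls of the species. It was at 0.488, 0.459 and 1.36 CPM in the TC_WD libraries, against 4.97 and 4.47 CPM in the TC_C libraries. In *T. ramosissima* it was at 12.6, 12.4 and 7.79 CPM in the TR_WD libraries, against 21.4, 31.2 and 48.4 CPM in the TR_C libraries. Wilting *T. ramosissima* leaves thus held more of this transcript than well-watered *T. chinensis* leaves, and no library of one species overlapped the other within a treatment. Its log2 fold change was −3.79 for TC_WD over TR_WD (standard error 0.45, adjusted p = 0.00267 by edgeR's quasi-likelihood test) and −2.85 for TC_C over TR_C (standard error 0.47, adjusted p = 0.237). For the controls, DESeq2 gave an adjusted p of 2.21e-07, edgeR without a filter on low counts gave 3.44e-08, and the highest adjusted p over 18 alternatives was 1. Several of its counts were not whole numbers, so that some of its fragments also matched other contigs. Trinity grouped it with a gene whose L was −0.52 in *T. chinensis* and 1.81 in *T. ramosissima*. A further gene of that group had an L of 1.22 and 1.76, with 0 CPM in TC_WD replicates 1 and 3. Whether fragments were divided among these genes was not tested.

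**Figure D3:**
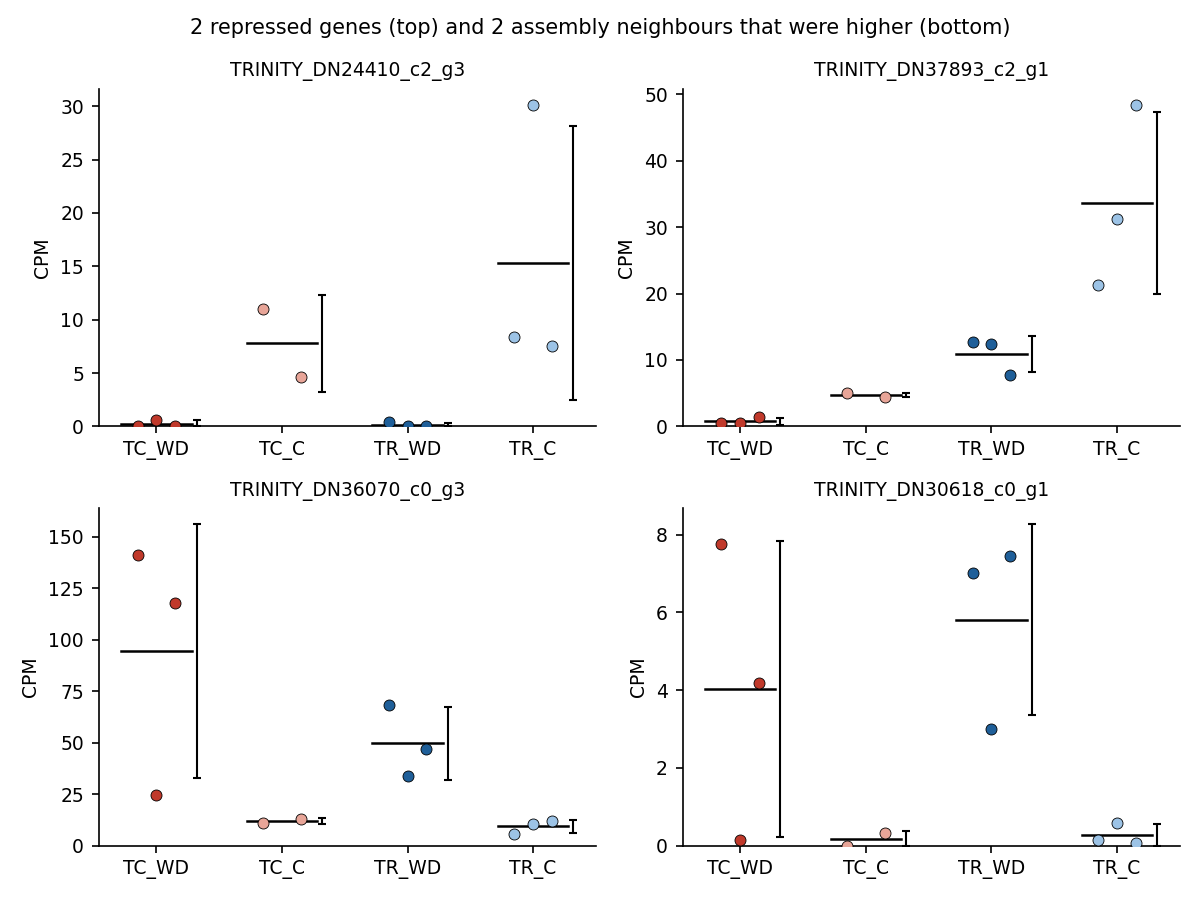
CPM in each library (points) with the group mean (horizontal line) and SD (bar to the right, 2 to 3 libraries per group, cut off at 0) for 2 members (top) and for 2 genes of the same assembly components as members that were higher under water deficit (bottom). TRINITY_DN24410_c2_g3 is near 0 in all 6 water deficit libraries, and in TRINITY_DN36070_c0_g3 and TRINITY_DN30618_c0_g1 the TC_WD replicate 2 library is the lowest of its group.

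The 3 *T. chinensis* plants under water deficit did not lose these transcripts to the same extent. The median member kept 6.86% of the control level in TC_WD replicate 1, 7.52% in replicate 2 and 23.7% in replicate 3. TC_WD replicate 3 held the highest value of its group for 167 of the 219 members, although it did so for 28.2% of the genes in the control range. It was at 3 or more times the mean of the other two for 93 members and at or below that mean for 29. Its depth of 11063900 fragments lay between those of the other TC_WD libraries, and its TMM factor, edgeR's correction of library size, was 0.961. On the log2(CPM + 1) scale it lay 0.71 above the mean of the other two for the median member and −0.05 from it for the median gene in the control range. The median coefficient of variation of the members was 75.2% in TC_WD, 23.0% in TC_C, 46.5% in TR_WD and 29.1% in TR_C. For all genes in the control range it was 24.0%, 13.4%, 28.9% and 23.7%. The median member averaged 1.29 CPM in TC_WD and 2.21 CPM in TR_WD, levels at which counting error widens this measure. How much of the spread was counting error was not tested. In *T. ramosissima* the plants were closer together, with medians of 14.6%, 17.9% and 14.3% of the control level in TR_WD replicates 1, 2 and 3. TR_WD replicate 2 held the highest value of its group for 92 members (42.0% of them), compared with 22.9% of the genes in the control range.

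The TC_WD libraries had the same order in genes that no TC_WD library had helped to choose. The criteria for the fall in *T. ramosissima* alone were met by 385 genes of the control range, in whose definition the TC_C libraries took part. The median gene of these kept 11.9%, 15.6% and 32.5% of its control level in TC_WD replicates 1, 2 and 3. Conversely, 758 genes met the criteria for *T. chinensis* alone, and their median gene kept 28.3%, 48.1% and 49.2% in TR_WD replicates 1, 2 and 3, so that TR_WD replicate 1 was the lowest there. Both sets contain the 219 members.

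**Figure D4:**
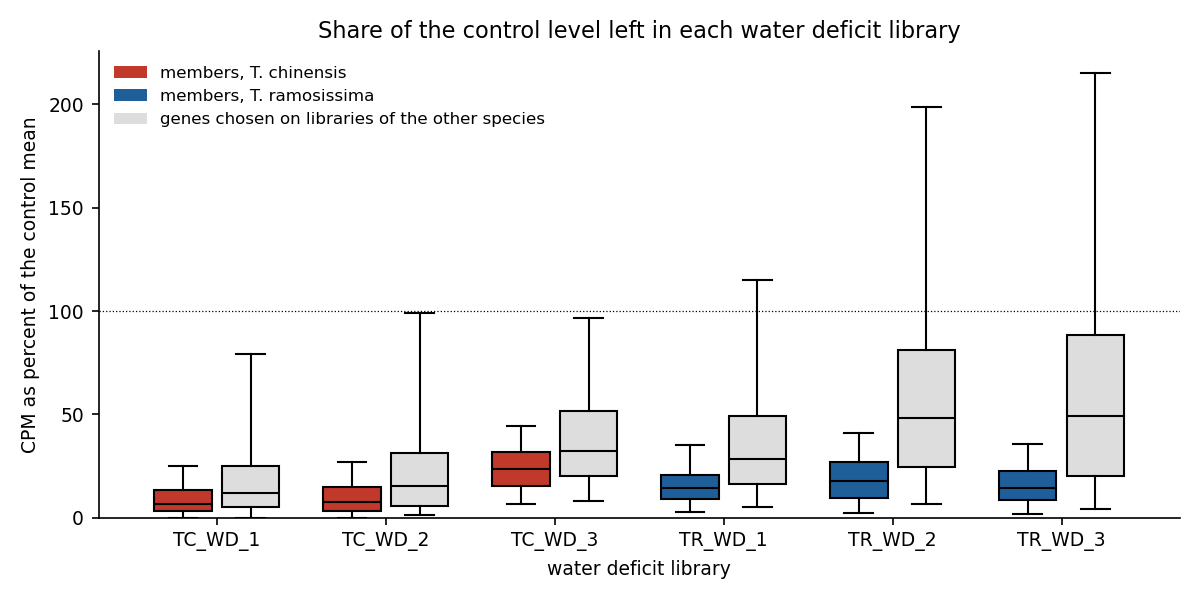
CPM in each water deficit library as a percentage of the control mean of its species, for the 219 members (coloured boxes) and for genes chosen on the libraries of the other species (grey boxes: 385 genes for TC_WD, 758 for TR_WD); boxes show medians and quartiles, whiskers the 5th and 95th percentiles, and the dotted line the control level. TC_WD replicate 3 is the highest of its group in both kinds of box, at 23.7% and 32.5%.

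The genes chosen for their fall in one species were then examined in the other, whose water deficit libraries had no part in the choice. Its control libraries took part through the control range, which the genes set beside them share, and also enter its L. Of the 385 genes chosen on *T. ramosissima*, 369 (95.8%) had an L below 0 in *T. chinensis*, compared with 53.6% of all genes in the control range, and their median L there was −1.63. The *T. chinensis* criteria were met by 219 of them (56.9%), compared with 7.78% of all genes in the control range. In edgeR's quasi-likelihood test (adjusted p of at most 0.05), 214 of the 385 (55.6%) were lower in TC_WD than in TC_C, where 9.85% of all genes tested and 11.1% of the genes in the control range were. This test takes its spread from 1 fit of all 4 groups, so the libraries that chose the genes also entered it. Only 3 of the 385 had an L of 1 or higher in *T. chinensis*. Of the 758 genes chosen on *T. chinensis*, 659 (86.9%) had an L below 0 in *T. ramosissima*, compared with 49.5% of all genes in the control range, and their median L there was −0.98. The *T. ramosissima* criteria were met by 219 of them (28.9%), compared with 3.95% of all genes in the control range. The test called 188 of the 758 (24.8%) lower in TR_WD than in TR_C, where it called 3.27% of all genes tested and 4.50% of those in the control range, and 19 of the 758 had an L of 1 or higher.

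In the well-watered controls, the members tended to be lower in *T. chinensis*. The TC_C mean lay below the TR_C mean for 169 of the 219 members (77.2%), compared with 46.5% of the genes in the control range. It did so for 73.7% of 232 more abundant genes with the same fall, described below. Of these 232, 17.2% had both TC_C libraries below all 3 TR_C libraries. Both TC_C libraries lay below all 3 TR_C libraries for 75 members (34.2%), where 8.45% of the genes tested were so ordered, and above them for 6 (2.74%), where 14.3% were. This direction is not independent of the choice of genes, since in each species a high control level makes the limit easier to pass. Whether the choice of genes gave the direction was not tested. The share with a lower mean in TC_C was 78.4% of the 385 genes chosen on *T. ramosissima* and 55.7% of the 758 genes chosen on *T. chinensis*. For single members the difference did not pass the test. At an adjusted p of at most 0.05, edgeR's quasi-likelihood test called 0 of the 219 members and 2 of the 31320 genes tested (0.00639%). An unadjusted p under 0.05 was reached by 15 members (6.85%), all lower in TC_C. Of all genes tested, 2.78% reached it and were lower in TC_C, and 2.22% were higher, together 5%. Counted in both directions, the members at this p numbered between 6 and 41 without 1 library. They were 6 without TC_C replicate 1 (3.04% of all genes) and 41 without TC_WD replicate 3 (4.96% of all genes). They were 7 without TC_C replicate 2 (2.77%), 10 without TR_C replicate 3 (3.54%) and 25 without TC_WD replicate 2 (5.52%). DESeq2 called 4 members (1.83%), where it called 0.437% of all genes, and limma-voom called 0. The share at an unadjusted p under 0.05 depended on the fit. In limma-voom 48 members (21.9%) reached it, where 5.41% of all genes did. With edgeR's quasi-likelihood test on the 2 control groups alone, 66 (30.1%) did, against 7.73% of all genes. With the replicate number as a block in that test, 8 (3.65%) did, against 4.16%. The median fitted log2 fold change of the members was −0.45 for TC_C over TR_C and −0.01 for all genes tested.

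At the wilting point the members again tended to be lower in *T. chinensis*, and this difference depended on which plant was counted. The TC_WD mean lay below the TR_WD mean for 170 of the 219 members (77.6%), compared with 52.6% of the genes in the control range. It did so for 82.3% of the 232 more abundant genes with the same fall. The levels under water deficit also entered the choice of genes. All TC_WD libraries lay below all TR_WD libraries for 37 members (16.9%), where 15.2% of the genes tested were so ordered. They lay above all TR_WD libraries for 5 members (2.28%), where 13.6% of the genes tested were so ordered. In edgeR's quasi-likelihood test (adjusted p of at most 0.05), 22 members (10.0%) were lower in TC_WD, where 6.26% of all genes tested were, and 3 members (1.37%) were higher, where 5.10% were. In both directions together this was 11.4% of the members, the same share as of all genes tested (11.4%). The median fitted log2 fold change was −0.66 for TC_WD over TR_WD. Without TC_WD replicate 3 it was −1.60, with 56 members (25.6%) lower and 0 higher in TC_WD, where 3.72% and 2.13% of all genes tested were called lower and higher. Without any other single library the share of members called in both directions together lay below that of all genes. In each of these fits most of the members called were lower in TC_WD. The calls over all genes were not split by direction there. The total called was 11 (5.02%, 10 lower) and 16 (7.31%, 13 lower) without TC_WD replicates 1 and 2, where 5.999% and 10.1% of all genes were called. It was 14 (6.39%, 12 lower) and 13 (5.94%, 11 lower) without TC_C replicates 1 and 2, where 8.36% and 8.06% were. It was 33 (15.1%, 31 lower), 7 (3.20%, 7 lower) and 9 (4.11%, 9 lower) without TR_WD replicates 1, 2 and 3, where 16.2%, 6.01% and 5.55% were. It was 15 (6.85%, 14 lower), 13 (5.94%, 12 lower) and 14 (6.39%, 13 lower) without TR_C replicates 1, 2 and 3, where 11.5%, 9.03% and 9.76% were.

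**Figure D5:**
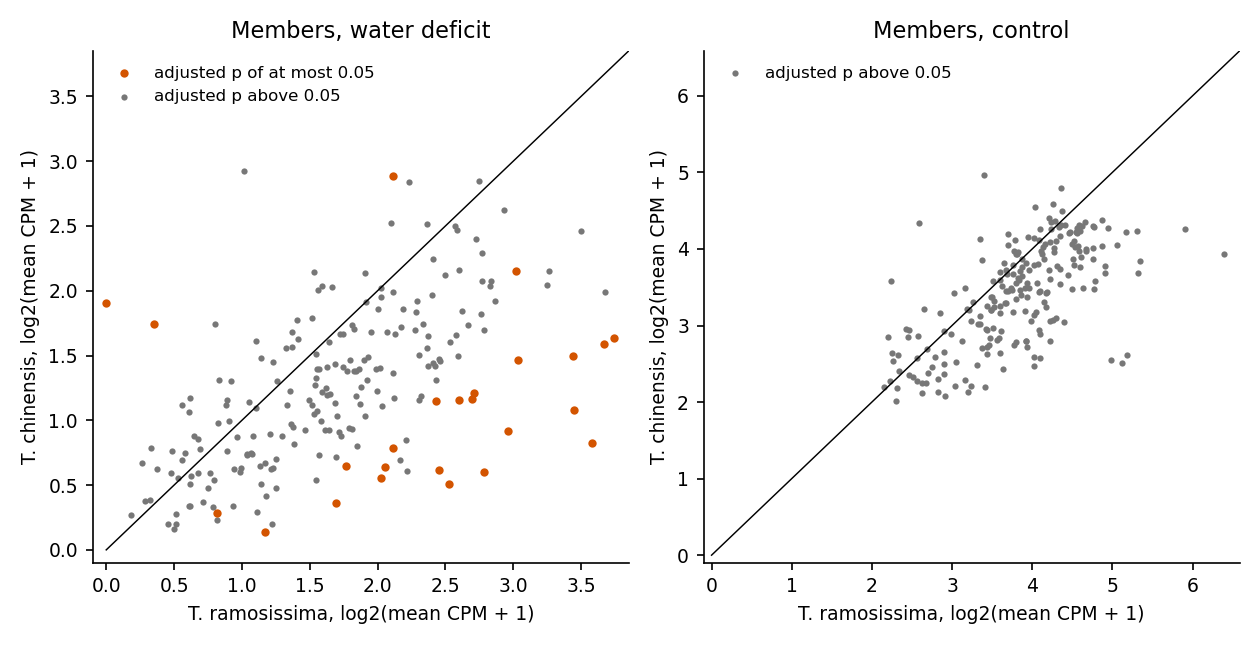
Mean level of each member in *T. chinensis* (vertical axis) and *T. ramosissima* (horizontal axis) as log2(mean CPM + 1), under water deficit (left) and in the control (right), with the line of equal level. More points lie below the line than above it in both panels, 170 of 219 under water deficit and 169 of 219 in the control, and the 25 coloured members differed between the species under water deficit by edgeR's quasi-likelihood test.

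The depth of the fall was compared between the species as a description, since the rule had used both responses. L was lower in *T. chinensis* for 113 members and lower in *T. ramosissima* for 106. The median of L in *T. chinensis* minus L in *T. ramosissima* was −0.015, with quartiles of −0.39 and 0.35, and 16 members differed by 1 or more. Without TC_WD replicate 3, L was lower in *T. chinensis* for 153 members, and the median difference was −0.33. In the interaction of species and treatment, edgeR's quasi-likelihood test at an adjusted p of at most 0.05 called 0 of the 219 members, where it called 0.0639% of all genes tested. An unadjusted p under 0.05 was reached by 11 members (5.02%), where 11.6% of all genes tested reached it. DESeq2 called 2 members (0.913%), where it called 2.94% of all genes, and limma-voom called 0. Without TC_WD replicate 3, an unadjusted p under 0.05 was reached by 51 members (23.3%) and by 10.1% of all genes, and the median fitted interaction of the members was −1.07, against −0.13 with all libraries. It was reached by 21 members (9.59%) without TR_WD replicate 1, by 17 (7.76%) without TR_WD replicate 3 and by 6 (2.74%) without TC_C replicate 2, where 16.8%, 9.97% and 7.19% of all genes reached it. Without TR_WD replicate 1 the quasi-likelihood test called 6 members (2.74%), where it called 2.75% of all genes, and without TC_WD replicate 3 it called 0, where it called 0.0259% of all genes tested. Across the members, L in one species had a Pearson correlation of 0.28 with L in the other, within the narrow range that the rule left, and across all 9739 genes in the control range it was 0.64. The points share library depth within a species and no library between species.

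The assembly placed the members somewhat apart from other genes of their level. An effective length relative to the median gene was obtained from the ratio of counts to TPM, the length-scaled level that RSEM gives. Its median was 1.05 for the members (quartiles 0.609 and 1.52), 0.904 for the genes in the control range and 0.980 for all genes tested. Lengths below 0.5 of the median gene were found for 40 members (18.3%) and for 24.5% of the genes in the control range. Trinity groups assembled genes into components, and 107 members (48.9%) were the only gene of their component, compared with 34.9% of the genes in the control range. At least 1 count that was not whole, a sign of fragments shared between contigs, was found for 30 members (13.7%) and for 24.7% of the genes in the control range. Among 232 more abundant genes with the same fall, the median length was 1.13, and 17.2% were below 0.5 of the median gene. Of the same 232 genes, 37.9% were alone in their component and 23.7% had a count that was not whole. These are descriptions of the assembled contigs, and they were not tested.

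The 219 members lay in 215 components, of which 4 held a pair of members each and none held more. The other genes of these components were 233, of which 92 averaged at least 3 CPM in 1 or more groups. Of these 92 neighbours, 34 (37.0%) had an L of −1 or lower in both species, compared with 5.19% of all 22807 genes at this level, and 7 (7.61%) had an L of 1 or higher in both, compared with 4.23%. Their median L was −0.93 in *T. chinensis* and −0.67 in *T. ramosissima*. The 3 CPM could be reached through any group, so some of the 7 passed only through water deficit groups where they were high. TRINITY_DN30618_c0_g1 was such a gene, with means of 0.160 CPM in TC_C and 0.270 CPM in TR_C. The 22807 genes were filtered in the same way, and the shares were not tested. Genes of a component share sequence, so that fragments may have been divided among them before deposit.

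The neighbours with the highest L in both species were higher under water deficit, where their member was lower. TRINITY_DN36070_c0_g3 was at 141, 24.7 and 118 CPM in the TC_WD libraries, against 10.8 and 13.2 CPM in the TC_C libraries. In *T. ramosissima* it was at 68.4, 33.6 and 47.0 CPM in the TR_WD libraries, against 5.71, 10.6 and 11.9 CPM in the TR_C libraries. The member of its component was at 3.22, 0.917 and 2.35 CPM in the TC_WD libraries, against 14.2 and 16.3 CPM in the TC_C libraries, and L was −2.36 in *T. chinensis* and −1.56 in *T. ramosissima*. For both genes the groups did not overlap within a species, and TC_WD replicate 2 was the lowest library of its group.

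TRINITY_DN30618_c0_g1 was near 0 in the controls. It was at 7.76, 0.153 and 4.20 CPM in the TC_WD libraries, against 0 and 0.320 CPM in the TC_C libraries, so that TC_WD replicate 2 stayed within the range of the controls. In *T. ramosissima* it was at 7.01, 3.00 and 7.44 CPM in the TR_WD libraries, against 0.143, 0.590 and 0.0757 CPM in the TR_C libraries, without overlap. The member of its component averaged 0.471 ± 0.297 CPM in TC_WD (SD, n = 3) and 6.38 ± 1.10 CPM in TC_C (SD, n = 2), and 3.08 ± 0.677 CPM in TR_WD and 16.1 ± 5.37 CPM in TR_C (SD, n = 3 each).

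Beside the members, 232 genes with at least 20 CPM in both controls fell by the same criteria. Their summed level was 3096 ± 1317 CPM in TC_WD (SD, n = 3) and 22883 ± 1285 CPM in TC_C (SD, n = 2), and 5311 ± 1598 CPM in TR_WD and 27963 ± 5481 CPM in TR_C (SD, n = 3 each). Their median gene kept 13.6% of its control level in *T. chinensis* and 21.2% in *T. ramosissima*, where the median member kept 14.2% and 16.8%. TC_WD replicate 3 was again the highest of its group, with a sum of 4470 CPM beside 1844 and 2976 CPM in replicates 1 and 2. The 232 genes and the members were not tested against each other, because both were chosen for the same fall.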

How the data were processed

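RNA from leaves of both species was sequenced as read pairs. The authors trimmed the reads with Prinseq 0.20.4, assembled both species into 1 reference with Trinity 2.4.0, aligned each library with Bowtie 2 and estimated abundance with RSEM (version not given in the sources used here). In the deposited tables the estimated counts are fragments assigned to each assembled gene, without normalization, and the deposited TPM values are RSEM's own. Contigs of 1 gene can divide its counts, and a contig built from both species can fit 1 of them better.

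The rule was applied to the counts as deposited. For the tests they were rounded and fitted in R 4.3.3 with edgeR 4.0.16: TMM, 1 quasi-likelihood fit of all 4 groups, genes above 1 CPM in at least 2 libraries, and Benjamini-Hochberg adjustment over 31320 genes, of which all 219 members were part. The standard error of a log2 fold change is its size over the root of the F statistic. DESeq2 1.42.0, limma-voom (limma 3.58.1), other scalings, filters, thresholds and pseudocounts, fits of 2 groups, the replicate number as a block and each library left out were alternatives. The scripts were tested on simulated data. Replicate libraries were compared gene by gene: the median chi-square lay between 2.13 and 7.23, above sampling noise. TPM served for relative lengths, from values of at least 10 fragments and 0.5 TPM in the control libraries. Functions and sequences of the genes were not analysed here.

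The members, lists and tests were chosen with earlier results of these data known. The genes named are the member with the lowest value of the larger L, the member with the smallest unadjusted p between the controls, and the 2 genes of a member's component, at 3 CPM or more in a group, with the highest smaller L.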

Additional observations from a re-analysis of the deposited data

How the results depend on the processing

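The number of genes that met the rule was 114 with a pseudocount of 2, and 500 and 78 with a log2 limit of −1 and −2. With TPM in place of CPM it was 224, of which 128 were among the 219. Without 1 library it lay between 186 and 266. The median L of the members was −2.24 and −1.72 in *T. ramosissima* with a pseudocount of 0.5 and 2, and without 1 library it lay between −2.12 and −1.93 there and between −2.39 and −1.93 in *T. chinensis*. The share of the genes chosen on *T. chinensis* that also met the *T. ramosissima* criteria was 35.6% with a limit of −1 and 26.9% to 32.8% without 1 library. The share of those chosen on *T. ramosissima* that also met the *T. chinensis* criteria was 63.6% with a pseudocount of 0.5, 66.3% with a limit of −1, and 48.1% to 69.1% without 1 library. Other scalings moved the median L of the genes in the control range by at most 0.06.

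Between the controls, DESeq2 called 4 members (1.83%; 0.437% of all genes) and edgeR without a filter on low counts called 11 (5.02%; 0.765%), and 0 were called without any 1 library. Between the water deficit groups, 0 members passed an adjusted p of 0.001 with an absolute log2 fold change of 2, where 0.0255% of all genes did. Without a filter, edgeR covered 116686 genes, here and for the controls and the interaction, where the main fit covered 31320. Its share of all genes therefore includes genes that the filter leaves out for low counts. DESeq2 called 46 members (21.0%; 18.6% of all genes), limma-voom 6 (2.74%; 8.23%) and edgeR without a filter 60 (27.4%; 5.69%). On these 2 groups alone, edgeR called 5 of the 189 members that then passed the filter (2.65%; 3.99%). Without 1 library the number was between 7 and 56. For the interaction, DESeq2 called 2 (0.913%; 2.94%) and edgeR without a filter 9 (4.11%; 1.54%), and between 0 and 6 were called without 1 library. For TRINITY_DN37893_c2_g1, the log2 fold change between the controls was −2.86 by DESeq2 and −2.81 without a filter, both past the threshold. Whether the replicate numbers pair the plants cannot be settled with 2 or 3 libraries per group. Over 15 pairs of libraries with the same number, the correlation of deviations from the group means lay between −0.21 and 0.11. Of these, 1 pair exceeded 0.1. With the replicate number as a block, 13 members (5.94%; 8.22% of all genes) were called between the water deficit groups and 0 for the controls and for the interaction. The causes of these differences were not tested. Under water deficit, 143, 132 and 49 members in TC_WD replicates 1, 2 and 3, and 56, 55 and 55 in TR_WD replicates 1, 2 and 3, were below 1 CPM, which is 10.2 to 13.1 fragments in these libraries.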

Other observations

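Genes outside the rule continued the pattern around it. In the control range, 18 genes passed the log2 limit in both species without ordered libraries, and 13 neighbours in the members' components had the same ordered fall but lay outside the control range. The 166 genes that met the criteria in *T. ramosissima* and not in *T. chinensis* still kept a median of 25.7%, 35.0% and 54.0% of the control level in TC_WD replicates 1, 2 and 3. The 539 genes that met them in *T. chinensis* and not in *T. ramosissima* kept 37.3%, 63.6% and 68.9% in TR_WD replicates 1, 2 and 3, so that TR_WD replicate 1 was the lowest of its group there, whereas among the 219 members it was level with replicate 3.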
